A study of Populus alba x Populus glandulosa with 9 samples.

Results

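In stems of 84K poplar, 7 of 85755 gene identifiers were expressed in the top internodes and at or close to 0 further down. The genes were chosen by their FPKM, a level per kilobase of gene scaled to the size of the library. Each had at least 2 FPKM in every top library and at most 0.2 FPKM in every middle and bottom library. 84K poplar is a clonally propagated hybrid, Populus alba x Populus glandulosa, and poly(A) RNA of its stems was sequenced. All plants were wild type, 6 months old and about 200 cm tall, and had been propagated from cuttings before growing under natural conditions. The top samples were internodes 2 to 3, the middle samples internodes 9 to 10 and the bottom samples internodes 14 to 15, with 3 libraries per position. Whether libraries of the same position came from different plants is not stated, so any p-value reflects variation among these libraries alone, and that variation may be technical.

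A poplar stem grows in length just behind the shoot tip, where young internodes elongate and the first vascular strands form. Further down elongation stops, and the vascular cambium, a ring of dividing cells, adds wood to the inside and secondary phloem and bark to the outside. Samples from the tip downwards thus follow primary growth into secondary growth. The deposited files give identifiers without names or positions, so no function is given for any of the 7 genes, and the labelled tissue was not checked against marker genes. In bulk stem RNA, a loss of the cells that hold a transcript and a loss of the transcript per cell cannot be told apart.

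The libraries held 41434042 to 75217046 counts, and since every count was even, a read pair is taken here as 2 counts. Middle library 2 stood apart from the other middle libraries. Its log2 CPM, counts scaled to library size, correlated with those of middle libraries 1 and 3 at 0.918 and 0.919 over 52436 genes, while libraries 1 and 3 correlated at 0.954. Its correlations with the bottom libraries were 0.874 to 0.887, against 0.928 to 0.954 for the other middle libraries. With the top libraries it correlated at 0.871 to 0.878, within the 0.856 to 0.886 of the other middle libraries. Genes are not independent replicates, so these values describe the libraries only. Results that rest on middle library 2 are therefore given with and without it.

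The 7 genes were Pop_G03G010555, Pop_A03G049884, Pop_G05G032865, Pop_A01G075050, Pop_G02G015975, Pop_A07G085268 and Pop_G07G086645. Since the rule used all 9 libraries, the levels below are a description of what it picked, and the contrast between the top and the other positions supports nothing further.

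Pop_G03G010555 had 32.2, 3.81 and 5.38 FPKM in top libraries 1, 2 and 3, from 1136, 182 and 192 read pairs. Below the top it had 0.142 FPKM in middle library 2, from 4 read pairs, and 0 counts in the other 5 libraries. Top library 1 thus held most of its reads, and middle library 2 was the only library below the top with any. Its pooled level was 284-fold higher in the top than in the middle, with an exact 95% binomial interval of 111 to 1040 that covers counting error only. Against the bottom, where it had 0 counts, it was at least 450-fold higher, a bound set by 3 read pairs over the 3 bottom libraries. Both values rest on top library 1, and without it they were 99.9 (38.7 to 369) and at least 159. Without middle library 2 the gene had 0 counts in the middle and was at least 259-fold higher in the top.

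Pop_A03G049884 had 29.7, 3.23 and 5.68 FPKM in the 3 top libraries, again highest in library 1. A single read pair in middle library 2, or 0.039 FPKM, was all that was counted in the 6 libraries below. The pooled ratio of top to middle was 965 (exact 95% binomial interval 173 to 38100), and against 0 counts in the bottom the gene was at least 383-fold higher in the top. Its ratio to the middle rests on that 1 read pair: without middle library 2 it was at least 220-fold higher in the top. Without top library 1, the ratio to the middle was 348 (62.1 to 13800) and the bound against the bottom 138.

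Pop_G05G032865 had 7.54, 8.15 and 3.84 FPKM in the top. It had 0 counts in all middle libraries and in bottom libraries 2 and 3, but 0.161 FPKM in bottom library 1. That value stands for 2 read pairs, because the gene is short: counts and FPKM together imply a length of 473 bp. It was at least 73.9-fold higher in the top than in the middle, and 132-fold higher than in the bottom (exact 95% binomial interval 36.2 to 1090). Without bottom library 1, it was at least 60.3-fold higher than in the bottom.

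Pop_A01G075050 had 4.20, 7.996 and 3.78 FPKM in the top, from 289, 745 and 263 read pairs. In the middle it had 0.030, 0.182 and 0 FPKM, and in the bottom 0.031, 0 and 0.028 FPKM. Of its 16 read pairs below the top, 10 came from middle library 2. The pooled top level was 81.2-fold that of the middle (exact 95% binomial interval 46.3 to 158) and 290-fold that of the bottom (113 to 1070). Without middle library 2, the ratio to the middle was 333 (92.0 to 2750).

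Pop_G02G015975 was the only one of the 7 with counts in all 9 libraries. It had 2.01, 6.30 and 6.84 FPKM in the top, so that top library 1 lay just above the limit. Below, it had 0.023, 0.184 and 0.091 FPKM in the middle and 0.036, 0.066 and 0.088 FPKM in the bottom. With an implied length of 3177 bp it was also the longest of the 7 genes, and its 38 read pairs below the top were the most of any. The pooled ratios were 55.1 to the middle (exact 95% binomial interval 35.9 to 89.3) and 81.0 to the bottom (50.4 to 139). The ratio to the middle was 98.9 (50.1 to 229) without middle library 2.

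Pop_A07G085268 had 4.44, 5.15 and 2.13 FPKM in the top. In the middle it had 0.129, 0.158 and 0 FPKM, and in the bottom 0, 0.061 and 0.092 FPKM, 13 read pairs in all. It was 40.2-fold higher in the top than in the middle (exact 95% binomial interval 20.2 to 93.7) and 76.5-fold higher than in the bottom (32.5 to 237). Without bottom library 3, the latter ratio was 126 (34.6 to 1040).

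Pop_G07G086645 had 3.998, 2.14 and 4.92 FPKM in the top, with the lowest mean of the 7 genes. All 3 middle libraries held traces of it, at 0.042, 0.153 and 0.109 FPKM from 1, 3 and 2 read pairs, and all 3 bottom libraries were at 0 counts. The pooled top level was 36.4-fold that of the middle (exact 95% binomial interval 16.5 to 100) and at least 86.7-fold that of the bottom. Its ratio to the middle was 49.8 (16.9 to 243) without middle library 2. Leaving out a library in which a gene had 0 counts also moved 12 of these ratios and bounds, in 5 genes, by over 1.5 times. These moved by 1.52 to 1.64 times, and others by less. For the 12, the libraries were middle library 1 and bottom libraries 2 and 3. Every such value fell, as it must when sequencing depth is removed without any reads of the gene.

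**Figure D1:**
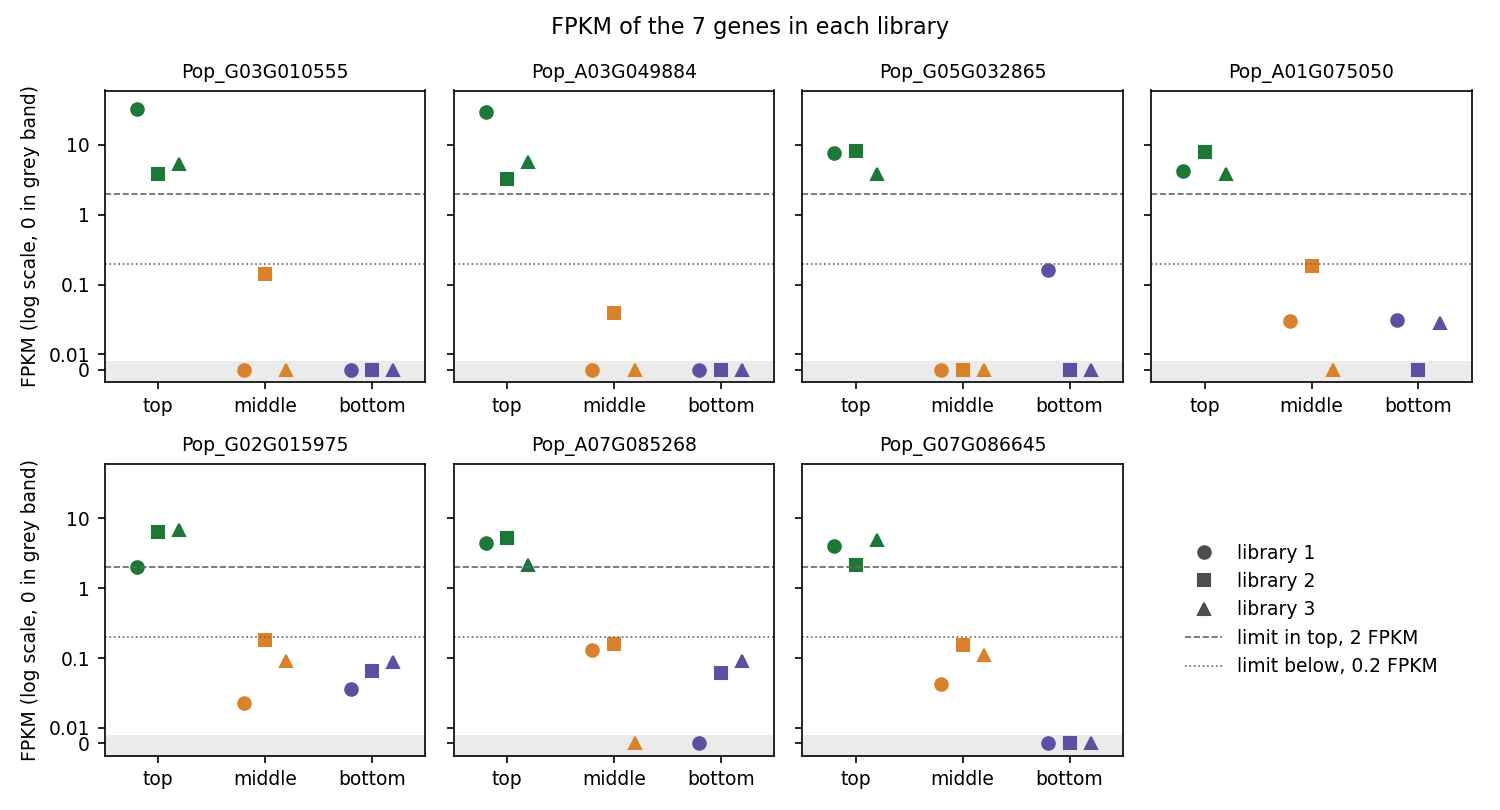
FPKM of each gene by position on a log scale, with 1 symbol per library (circle 1, square 2, triangle 3) and values of 0 drawn in the grey band. The dashed and dotted lines are the limits of 2 and 0.2 FPKM, and in 6 of the 7 genes the highest value below the top is the square of middle library 2.

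Ordered by mean top level, per length, the genes ran from Pop_G03G010555 at 13.8 ± 16.0 FPKM and Pop_A03G049884 at 12.9 ± 14.6 FPKM to Pop_G05G032865 at 6.51 ± 2.33 FPKM (SD, n = 3). Pop_A01G075050 at 5.33 ± 2.32, Pop_G02G015975 at 5.05 ± 2.65, Pop_A07G085268 at 3.90 ± 1.58 and Pop_G07G086645 at 3.69 ± 1.42 FPKM followed (SD, n = 3). Neighbours in this order differed by less than the SD of either gene, with 1 exception. Pop_A03G049884 and Pop_G05G032865 differed by more than the SD of the second, but by less than that of the first. The first 2 places rest on top library 1: in top library 2, Pop_G05G032865 and Pop_A01G075050 were the highest of the 7, and in top library 3, Pop_G02G015975 was. These are modest levels for the tip of the stem. The median of the 7 means was 5.33 FPKM, against 9.59 FPKM over the 36112 genes with at least 2 FPKM in every top library, and 5 of the 7 lay between their percentiles 9.42 and 32.1.

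The 7 genes were not highest in the same top library. The ratio of the highest to the lowest top library was 2.12 for Pop_A01G075050 and Pop_G05G032865, 2.30 for Pop_G07G086645, 2.42 for Pop_A07G085268 and 3.41 for Pop_G02G015975. In Pop_G03G010555 and Pop_A03G049884 it reached 8.45 and 9.20. The median of the 7 ratios was 2.42, beside a median of 1.33 with quartiles of 1.19 and 1.62 over the 36112 genes. Library 1 was highest in 2 of the 7, library 2 in 3 and library 3 in 2, beside 37.8%, 31.4% and 30.8% of the 36112 genes. Nothing particular to the 7 is read from these counts.

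**Figure D2:**
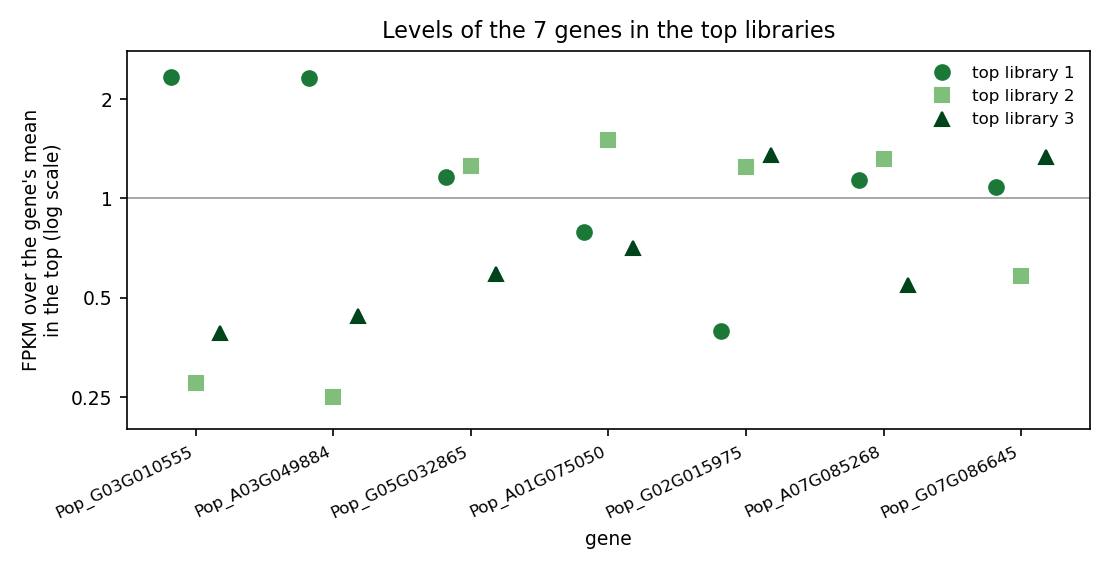
FPKM of each gene in the 3 top libraries, divided by the gene's mean over them, on a log scale. Pop_G03G010555 and Pop_A03G049884 share a pattern with library 1 far above the other top libraries, and the remaining 5 genes are highest in library 2 or 3.

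Among the 7 are 2 pairs whose identifiers carry the same number after the class letter, 1 of class A and 1 of class G each. Pop_A03G049884 and Pop_G03G010555 kept nearly the same ratio in all top libraries, with the second at 1.08, 1.18 and 0.948 times the first in libraries 1, 2 and 3. Their implied lengths were 1160 and 1270 bp. Pop_A07G085268 and Pop_G07G086645 did not run in parallel: the second was at 0.901, 0.416 and 2.31 times the first, and their implied lengths were 1137 and 883 bp. The identifiers alone do not show that either pair is a pair of gene copies. Should they be near-identical, reads could have been assigned to the wrong partner, which was not examined here. By class, 3 of the 7 were A, 4 were G and 0 were Un, beside 49.7%, 48.7% and 1.53% of the 36112 genes. The median implied length was 1160 bp, against 1535 bp over those genes. None of the 7 had a number within 5 of another of the same prefix.

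In edgeR's quasi-likelihood test over 52436 genes, all 7 were called lower in the middle than in the top, where 10.4% of all genes were called lower. The bottom against the top likewise gave calls in 7 of 7, beside 15.1% of all genes. The rule used both contrasts, so nothing is read from these counts. They depended on the libraries used: without replicate number 3 in all positions, 0 of the 7 were called in the middle (edgeR adjusted p = 0.0675 to 0.1) and 4 in the bottom (edgeR adjusted p = 0.0368 to 0.0572). Under that fit the share of all genes called lower was 0.219% in the middle and 2.96% in the bottom. For Pop_A01G075050 the fitted log2 change from top to middle was then -5.84 ± 1.09 (SE), against -6.26 ± 0.99 with all libraries. Without middle library 2, 7 of the 7 were called lower in the middle, beside 7.35% of all genes.

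The rule set the same limit for middle and bottom and did not order them. Of the 7 genes, 0 were called between these positions in edgeR, where 0.811% of all genes were called in either direction. At an unadjusted edgeR p under 0.05, 1 was lower in the bottom. This was Pop_G07G086645, with 6 read pairs in the middle and 0 in the bottom (edgeR adjusted p = 0.126). All 3 bottom libraries, at 0 counts, lay below all 3 middle libraries, at 1, 3 and 2 read pairs. How many of all genes show such a gap, or an unadjusted p under 0.05, was not counted, so nothing is read from either. DESeq2 called Pop_G07G086645 (adjusted p = 0.0171) and limma did not. DESeq2 also called more of all genes, 1656 of 52436 lower in the bottom and 111 higher. The DESeq2 call used the deposited counts, in which each read pair counts as 2. Counts halved to read pairs were run in edgeR only, where its adjusted p was 0.259. Over all fits, left-out libraries included, its adjusted p ranged from 0.0171 to 0.896. The limit of 0.2 FPKM amounts to 1.96 to 18.3 read pairs in the middle and bottom libraries, depending on gene and library.

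FPKM of the 7 genes together came to 84.1, 36.8 and 32.6 in top libraries 1, 2 and 3. In middle libraries 1, 2 and 3 they came to 0.224, 0.858 and 0.2 FPKM, from 9, 35 and 8 read pairs. In the bottom they came to 0.228, 0.127 and 0.208 FPKM, from 7, 8 and 13 read pairs. Middle library 2 therefore held more of these transcripts than any other library below the top, though it was among the shallowest with 22201607 read pairs in all. It had reads for 6 of the 7 genes, against 2 to 4 in the other libraries below the top. Without it, 2 of the 7 genes, Pop_A03G049884 and Pop_G03G010555, would have had 0 counts everywhere below the top, while with all libraries no gene did.

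Leaving each library out of the rule in turn showed how much each one decided. Without middle library 2, 34 genes met the limits in the other 8 libraries, so 27 genes were kept out by that library alone. Without top library 1, 2 or 3 the rule chose 11, 13 and 16 genes. It chose 10 without middle library 1, 8 without middle library 3 and 7, 8 and 7 without bottom libraries 1, 2 and 3. All of these sets contain the 7 genes by construction.

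**Figure D3:**
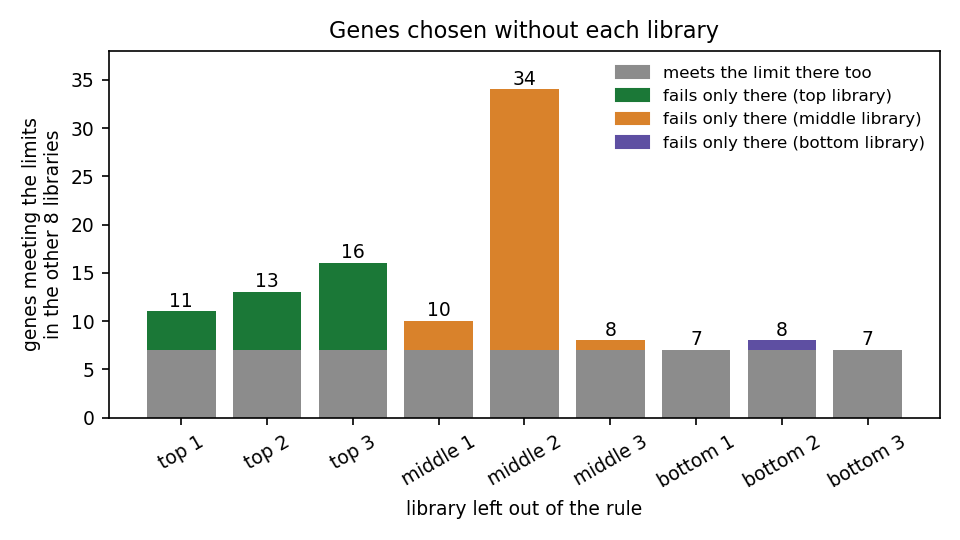
Number of genes that meet the limits in 8 libraries when the library on the x axis is left out. Grey bars are the 7 genes that also meet the limit in the left-out library, and the coloured part fails only there, with 27 genes for middle library 2 and 0 to 9 for the others.

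The 27 genes kept out by middle library 2 were not a uniform group there. In that library 13 of them had at least 2 FPKM, 5 had 0.5 to 2 FPKM and 9 had less than 0.5 FPKM. The highest in the top was Pop_A14G045737, with 80.7, 94.8 and 74.7 FPKM in the top. In the middle it had 0.09, 5.74 and 0.12 FPKM, and in the bottom 0.12, 0 and 0.03 FPKM. Its level in middle library 2 was thus well above the other libraries below the top, but only 6.89% of its top mean.

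At the other end, Pop_A02G065309 had 2.23, 4.56 and 2.24 FPKM in the top and 14.5 FPKM in middle library 2, with 0.04 and 0 FPKM in middle libraries 1 and 3. Pop_A03G014972 had 17.5 FPKM there, against 2.87, 3.96 and 10.98 FPKM in the top. Pop_G14G089127 had 10.5 FPKM, against 6.86, 9.45 and 4.0 FPKM in the top. These 3 genes were higher in middle library 2 than in any top library. Over the 27 genes, the level in middle library 2 ran from 1.27% to 481% of the top mean, with a median of 19.9%. Their read pairs in that library numbered 4 to 475. Top library 2, which shares the replicate number of that library, was the highest top library in 20 of the 27. It was so in 31.4% of the 36112 genes with at least 2 FPKM in every top library. Top library 2 was also the highest in 47 of the 73 genes, described below, that were chosen without the middle libraries and include these 27. Over 52436 genes, middle library 2 correlated with top libraries 1, 2 and 3 at 0.871, 0.871 and 0.878. Whether the shared number marks shared material is not stated and was not tested.

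**Figure D4:**
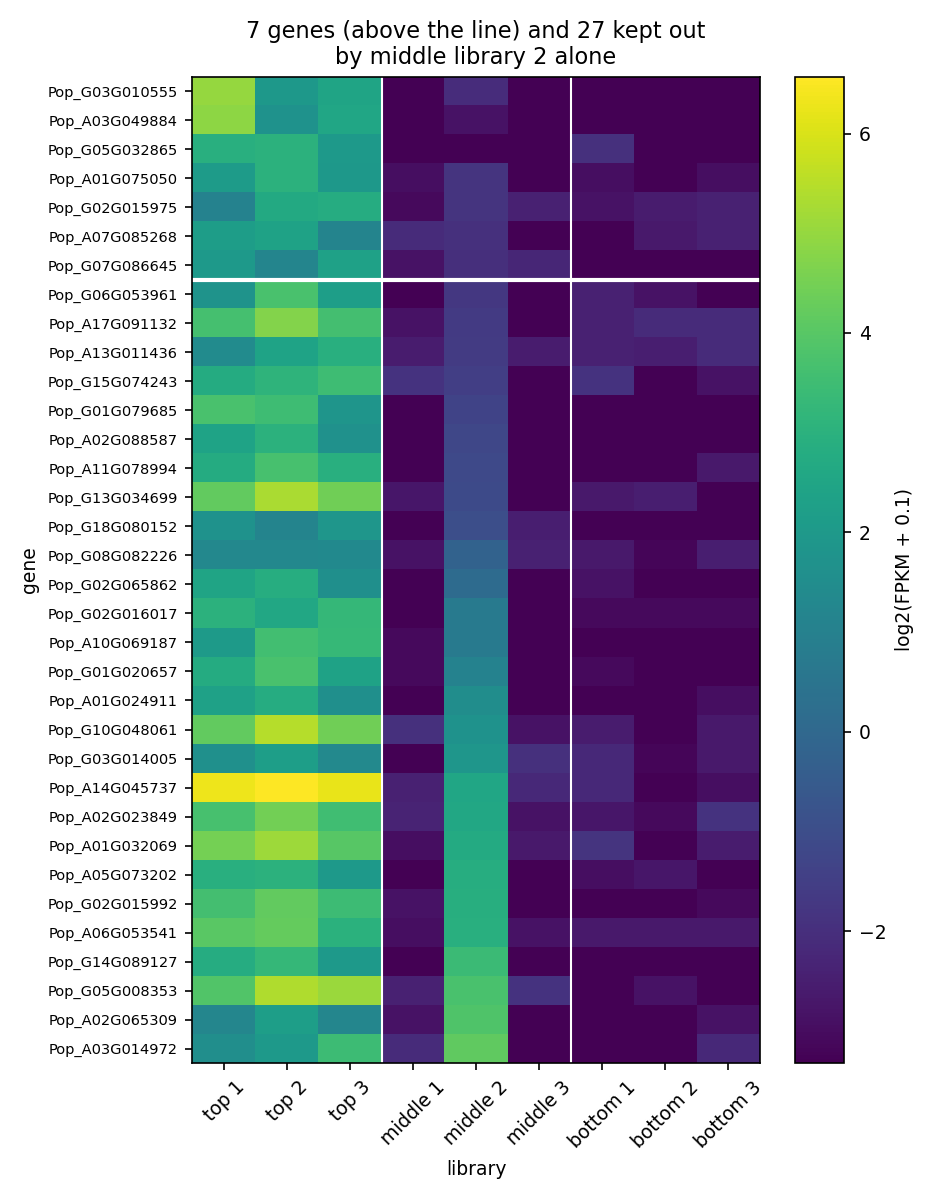
Log2(FPKM + 0.1) of the 7 genes, above the white line, and of the 27 genes kept out by middle library 2 alone, sorted by their level in it. The 27 genes are dark in middle libraries 1 and 3 and in all bottom libraries, and range from 0.202 to 17.5 FPKM in middle library 2.

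The middle libraries can be read as a measure the choice did not use when genes are chosen on the top and bottom libraries alone. With at least 2 FPKM in every top and at most 0.2 FPKM in every bottom library, 73 genes were chosen. Their median level was 0.088 FPKM in middle library 1, 1.58 in middle library 2 and 0.116 in middle library 3. In middle library 2, 62 of the 73 were above 0.2 FPKM and 34 had at least 2 FPKM. In libraries 1 and 3, 28 and 32 were above 0.2 FPKM, and 14 and 10 had at least 2 FPKM. Middle library 2 was the highest of the 3 in 64 of the 72 genes with any middle count, where it was the highest in 24.3% of the 36112 genes expressed in the top. In both middle libraries 1 and 3, 34 of the 73 were at or below 0.2 FPKM. Top library 2 was the highest top library in 47 of the 73, against 31.4% of the 36112 genes. Only 9 of the 73 had at least 2 FPKM in every middle library.

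**Figure D5:**
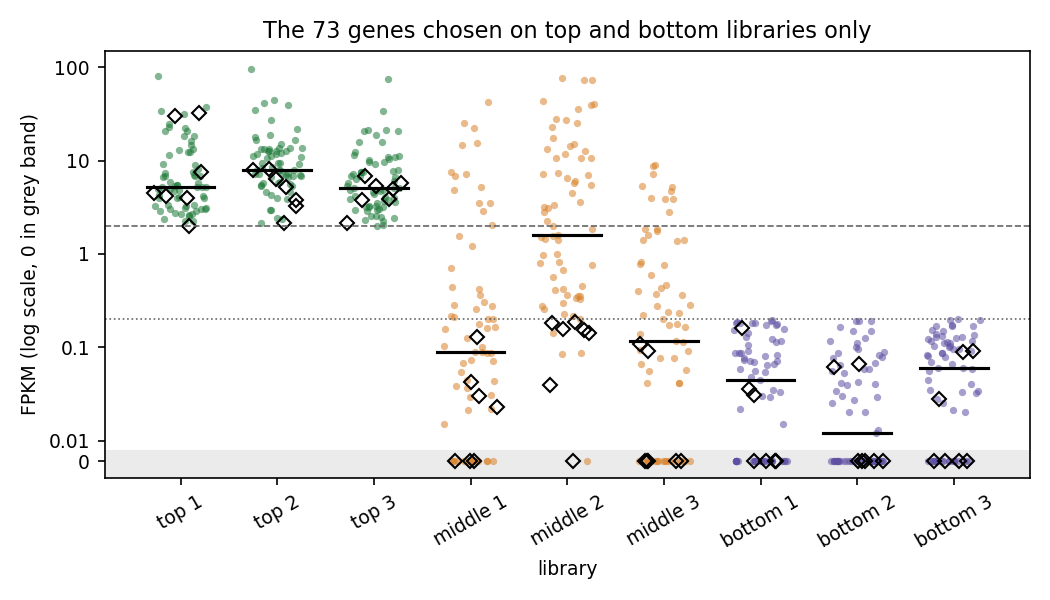
FPKM by library, on a log scale with 0 in the grey band, of the 73 genes chosen on the top and bottom libraries only. Black diamonds are the 7 genes, bars are medians, and the median of middle library 2 (1.58 FPKM) lies above those of middle libraries 1 and 3 (0.088 and 0.116 FPKM).

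Chosen on the top and middle libraries alone, 10 genes were found, and the bottom libraries were then the unused measure. Besides the 7, these were Pop_A04G070603, Pop_G17G081534 and Pop_G03G021411. Pop_A04G070603 had 7.14, 2.07 and 5.17 FPKM in the top and was again high in the bottom, at 8.51, 4.18 and 3.59 FPKM. Pop_G17G081534 did likewise, with 16.2, 2.10 and 9.46 FPKM in the top and 7.98, 1.18 and 6.43 FPKM in the bottom. Pop_G03G021411 stayed low, at 0, 0.223 and 0.056 FPKM, and missed the rule by bottom library 2 alone.

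Leaving out 1 replicate number in all positions left 3 unused libraries at a time. Chosen on replicates 1 and 3, 43 genes were found. In the unused replicate 2, 35 of them had at least 2 FPKM in the top, 42 had at most 0.2 FPKM in the bottom, but only 14 had at most 0.2 FPKM in the middle. Of 15 genes chosen on replicates 2 and 3, 10 met the limit in top library 1, 12 in middle library 1 and 14 in bottom library 1. Of 17 chosen on replicates 1 and 2, 8 met it in top library 3, 16 in middle library 3 and 17 in bottom library 3. In each case the genes that met all the limits were the same 7 by construction. Most genes thus kept the low level in the unused libraries below the top, except middle library 2, while top library 3 reached 2 FPKM in only 8 of the 17 genes.

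The limits run through a continuous range of values. Just inside the upper limit, the lowest top values were 2.007 FPKM in Pop_G02G015975, 2.131 in Pop_A07G085268 and 2.139 in Pop_G07G086645. Just outside it were Pop_G03G076312, Pop_G09G026100 and Pop_A11G079120, with lowest top values of 1.997, 1.736 and 1.713 FPKM, each in top library 3. The highest values below the top just inside the lower limit were 0.184, 0.182 and 0.161 FPKM in Pop_G02G015975, Pop_A01G075050 and Pop_G05G032865. Just outside were Pop_G05G017822 at 0.201 FPKM in middle library 1, and Pop_G06G053961 and Pop_A17G091132 at 0.202 and 0.218 FPKM in middle library 2. Pop_A17G091132 had 12.3, 26.8 and 12.2 FPKM in the top, more in top library 2 than any of the 7 genes.

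A ratio in place of the limits gave a related but longer list. Mean top level over the mean of the other 6 libraries was at least 50 in 33 of the 36112 genes, among them all 7 genes and 8 of the 27 kept out by middle library 2. At least 100 was reached by 16 genes, among them 4 of the 7 and 5 of the 27. Pop_A03G049884 and Pop_G03G010555 ranked first and second by this ratio. Pop_G05G032865 ranked 9, Pop_A01G075050 16, Pop_G07G086645 23, Pop_G02G015975 27 and Pop_A07G085268 30. The ratio is built from the same values as the rule, so these ranks describe the choice and add no support to it.

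Other patterns under the same 2 limits were also counted. Genes with at least 2 FPKM in every middle and bottom library and at most 0.2 FPKM in every top library numbered 43, beside the 7 of the reverse pattern. Without middle library 2 the counts were 57 and 34, and their difference was not tested. At least 2 FPKM in the middle libraries alone was met by 0 genes and in the bottom libraries alone by 0 genes. Top and bottom without the middle was met by 1 gene, Pop_A04G070603.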

How the data were processed

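Poly(A) RNA of 9 stem libraries was analysed from 2 deposited tables. Reads were trimmed with Trimmomatic 0.36 and aligned with HISAT2, per the submitters' processing notes. For the counting program, genome build, annotation and strand setting, the sources used here name nothing. The deposited counts are whole numbers per gene, and 0 of 503602 entries above 0 were odd. The authors' deposited FPKM were above 0 in the same entries. Columns were matched to libraries by the code in the sample title.

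The members and the comparisons around them were chosen with earlier results of these data known. Limits were applied to the FPKM as deposited, and all 7 genes are named, with the 3 genes just outside each limit; other genes were named after their values were seen. Gene length was implied from counts over FPKM. Calls come from edgeR 4.0.16 in R 4.3.3 on all 9 libraries (filterByExpr with minimum count 10 and minimum total 15, TMM scaling, quasi-likelihood test, Benjamini-Hochberg adjusted p under 0.05 over 52436 genes). DESeq2 1.42.0 and limma 3.58.1 on log2(FPKM + 1) or log2(FPKM + 0.1) were alternatives, as were counts halved to read pairs, other scalings, no filter, a replicate block and left-out libraries. The fits were tested on simulated data. Changes were planted there only in genes expected to have more read pairs below the top than the 7 had. Levels as low as theirs were thus not covered. Deviations from the position means correlated between same-numbered top and middle libraries at 0.27, 0.12 and 0.112. All 3 lie over 0.1, but libraries with different numbers were not compared, so whether the numbers pair libraries was not tested. For the other positions the correlations were -0.156 to 0.126, not all over 0.1. Libraries held 20717021 to 37608523 read pairs. Pooled ratios are read pairs scaled to library totals, with exact binomial (Clopper-Pearson) 95% intervals. Intervals and bounds cover counting error only. Lists by product name were not used, as the identifiers carry no names.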

Additional observations from a re-analysis of the deposited data

How the results depend on the processing

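The number of genes depended strongly on the limits. It was 23 with at least 1 FPKM in the top and 0 with at least 5 FPKM. It was 1 with at most 0.1 FPKM below the top, 33 with at most 0.5 FPKM and 0 with 0 counts. It was 4 on TPM, 63 with limits on position means, and, in alternatives chosen after seeing the data, 73 without the middle libraries and 80 with at most 1 FPKM below the top. Leaving out 1 library or 1 replicate number gave 7 to 43 genes. FPKM rescaled by TMM and the rule without the bottom libraries stayed within 1.5 times the 7. Of the 7, calls lower in the middle numbered 0 to 7 and in the bottom 4 to 7 when libraries or replicate numbers were left out. Over all genes, calls lower in the middle then numbered from 115 of 52550 to 4937 of 53295. In the bottom they numbered from 1555 of 52550 to 8273 of 53205. Between middle and bottom, DESeq2 called 1 of the 7 and every other fit 0. Of all 52436 genes, DESeq2 called 1656 lower in the bottom and 111 higher. The median top level was 4.46 to 6.10 FPKM with 1 top library left out and 6.75 on TPM. The median ratio of highest to lowest top library was 1.90 to 2.12 with 1 left out. Genes with 0 counts everywhere below the top numbered 0 to 2. Beyond the construction of each alternative, the cause was not tested. With the replicate number as a block, 7, 7 and 0 genes were called lower in the middle, lower in the bottom and between middle and bottom, so the block changed no call. Ratios with 1 library left out were also chosen after seeing the data. Levels below the top rest on few read pairs per gene.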

Other observations

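Some genes missed the limits in 1 top library only, and these were picked out after their values were seen. Of the 6 genes that failed in top library 2 alone, 4 have neighbouring identifiers. Pop_A09G077053 had 3.29, 0.61 and 3.03 FPKM in top libraries 1, 2 and 3. Pop_A09G077057 had 3.99, 0.98 and 11.25 FPKM, Pop_A09G077058 had 2.02, 0.37 and 3.25 FPKM, and Pop_A09G077059 had 6.71, 0.19 and 6.90 FPKM. All 4 were low in top library 2, as their selection requires. That library was the most deeply sequenced of the series with 37608523 read pairs, and the cause of the low values was not tested. Below the top, none of the 4 exceeded 0.2 FPKM in any library, as the limit requires.

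Top library 3 kept out 9 genes on its own. Pop_A13G032392 had 13.4 and 12.9 FPKM in top libraries 1 and 2 and 0 counts in library 3. Pop_A03G055852 and Pop_A03G055863 went from 13.7 and 4.93 FPKM in library 1 to 1.12 and 0.24 FPKM in library 3. Pop_A07G085202 and Pop_A07G085203, with consecutive numbers, had 2.23 and 4.44 FPKM in library 1 and 1.66 and 0.85 FPKM in library 3. Top library 1 kept out 4 genes, at 0.996 to 1.64 FPKM.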
